A study of Saccharomyces cerevisiae with 12 samples.

Results

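The cytosolic heat shock chaperone genes of *Saccharomyces cerevisiae* were followed through the polysome mRNA-Seq data of a wildtype and a ΔES27Lb strain. The group is a named list of 10 genes, found by systematic name among the 7126 genes of the count files: SSA1 (YAL005C), SSA2 (YLL024C), SSA3 (YBL075C), SSA4 (YER103W), HSP82 (YPL240C), HSC82 (YMR186W), HSP104 (YLL026W), HSP26 (YBR072W), HSP42 (YDR171W) and BTN2 (YGR142W). By the methods both strains derive from yJD1045 (NOY891), a MATa strain with ade2–1, can1–100, his3–11, leu2–3, trp1 and ura3–1 alleles, whose chromosomal rDNA was replaced by HIS3 (rdn1ΔΔ::HIS3). All 35S pre-rRNA therefore came from plasmid pJD694, which carries URA3, a 5S rRNA gene and a 35S operon behind a doxycycline-repressible TET promoter read by RNA polymerase II. The plasmid also holds a point mutation in 18S rRNA that gives resistance to Hygromycin B, and this applies to wildtype and mutant alike. In ΔES27Lb the b-arm of ES27L, an expansion segment of the 25S rRNA, is deleted. Cells grew in YPD to an OD of 0.8, and poly(A)-containing RNA was sequenced from cleared lysate (total mRNA) and from pooled polysome fractions of sucrose gradients (polysomal mRNA), with 3 replicates in each of the 4 conditions and 12 libraries in all. The labels do not say whether replicates were separate cultures, so p-values measure the spread between these samples, which may in part be technical. Libraries of a strain with the same replicate number are called a culture here.

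Cytosolic chaperones of the Hsp70 and Hsp90 families bind unfolded or immature proteins and release them in cycles of ATP binding and hydrolysis. Hsp104 pulls polypeptides out of aggregates together with Hsp70, and the small heat shock proteins bind misfolded proteins without ATP. In budding yeast these genes are transcribed under the heat shock factor Hsf1, which binds repeats of the heat shock element (HSE), and many are also under Msn2 and Msn4, which bind the stress response element (STRE). SSA2 and HSC82 are known as the mostly constitutive copies, whereas SSA3, SSA4, HSP26 and BTN2 are known for very low levels in unstressed cells and strong induction by heat.

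Each library held 15050764 to 21532842 counts, and the 10 chaperone genes took 0.262% to 1.47% of them. All 10 passed the filter on low counts that left 6003 genes for testing. Members held at least 304 and at most 88377 counts in a library, where 3 counts, the floor taken for detection, correspond to 0.108 to 0.223 CPM, the count of a gene scaled to the size of its library. Counting error covers reads only and is small beside the spread between replicates. The 6 MATa genes examined summed to 222 to 700.4 CPM in each library and the 3 of 4 MATalpha genes that passed the filter to 19.2 to 40.0 CPM, and the labels give MATa.

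Heat shock elements upstream of the members are shown because this is the site bound by Hsf1, under which these genes are transcribed. In the 500 bases before the start codon, an HSE of 3 units (GAANNTTCNNGAA or TTCNNGAANNTTC) was found in 5 of 10 members and in 1.48% of all 6019 promoters of this length. An HSE of 2 units (GAANNTTC or TTCNNGAA, which the 3-unit element contains) was found in 9 of 10 members and in 35.1% of promoters. The STRE (AGGGG, or CCCCT on the other strand) was found in 6 of 10 members and in 34.0% of promoters. Both strands were searched. SSA3 held none of these letters in its window, which says nothing of the factors. The sequences below run 5′ to 3′ on the gene's strand and were read from the RefSeq R64 genome of S288C, whereas the counts were made on BY4742. Only elements at least 120 bases before the start codon were considered for display, and on a tie the nearest was taken. The longest element is in capitals, with 15 bases on each side. It had 4 units in SSA1 (chrI:141763-141810, minus strand), HSP104 (chrXII:88306-88353, plus), HSP42 (chrIV:806363-806410, plus) and BTN2 (chrVII:772095-772142, plus). It had 3 units in SSA2 (chrXII:97691-97733, minus). It had 2 units in SSA4 (chrV:364321-364358, plus), HSP82 (chrXVI:98838-98875, minus), HSC82 (chrXIII:632155-632192, plus) and HSP26 (chrII:381661-381698, plus).
SSA1: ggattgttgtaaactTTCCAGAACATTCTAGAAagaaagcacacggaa
HSP104: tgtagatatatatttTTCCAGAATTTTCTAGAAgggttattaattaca
HSP42: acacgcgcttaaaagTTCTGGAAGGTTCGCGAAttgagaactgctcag
BTN2: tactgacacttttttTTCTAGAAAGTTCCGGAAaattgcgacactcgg
SSA2: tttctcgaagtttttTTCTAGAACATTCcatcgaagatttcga
SSA4: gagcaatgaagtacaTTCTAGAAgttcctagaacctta
HSP82: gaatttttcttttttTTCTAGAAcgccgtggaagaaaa
HSC82: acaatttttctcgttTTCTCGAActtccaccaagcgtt
HSP26: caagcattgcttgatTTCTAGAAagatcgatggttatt
The elements shown began 185 (HSC82) to 364 (SSA1) bases before the start codon.

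The chaperone mRNAs differed far more between replicates of a strain than most mRNAs did. Over the 3 replicates of a condition, the SD of log2 CPM had a median of 1.17 over the 10 members in wildtype total mRNA, where the median of all genes tested was 0.42. In wildtype polysomal mRNA the medians were 1.26 and 0.28, in ΔES27Lb total mRNA 1.29 and 0.29, and in ΔES27Lb polysomal mRNA 0.62 and 0.29. All 10 members lay above the median gene in each of the 4 conditions, and 5, 7, 7 and 4 of them in these conditions lay in the top 5% of all genes.

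Wildtype replicate 3 stood apart. All 10 members were highest there among the wildtype libraries of their pool, in total and in polysomal mRNA alike. The members summed to 11423 CPM in its total and 13545 CPM in its polysomal library, against 2769 to 5272 CPM in the other wildtype libraries. The 19 general stress genes examined, such as HSP12 and CTT1, moved with them. Their sum was 9499 and 14462 CPM in these libraries and 1254 to 2857 CPM in the other wildtype libraries. Their part in the chaperone values was not tested. A bulk library cannot tell a higher level in all cells from a higher level in a share of the cells.

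ΔES27Lb replicate 1 stood apart in another way. In its total library 7 members were highest of the 3 ΔES27Lb libraries, whereas SSA2 and HSC82 were lowest there. The general stress genes summed to 2374 CPM in that library, between the 1554 and 3965 CPM of ΔES27Lb replicates 2 and 3. In its polysomal library the same members were raised less, and SSA2 and HSC82 were not the lowest.

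**Figure D1:**
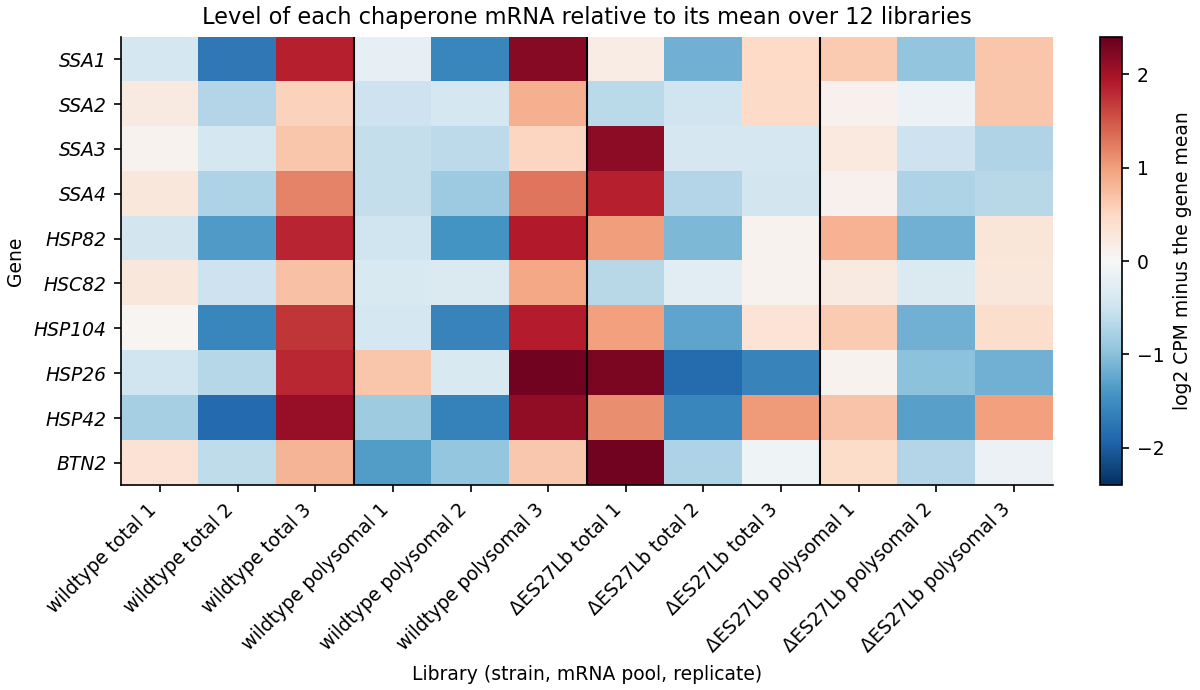
Each cell is the log2 CPM of a chaperone gene (rows) in a library (columns) minus that gene's mean over the 12 libraries, with red for higher and blue for lower values and black lines between the 4 conditions. Wildtype replicate 3 is red for all 10 genes in both pools, and ΔES27Lb total replicate 1 is red for SSA3, SSA4, HSP26 and BTN2 and blue for SSA2 and HSC82.

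The SSA genes encode the main cytosolic Hsp70s, which fold new and damaged proteins with J-domain partners. Levels below are CPM per kilobase of coding sequence (CDS), in the order of replicates 1, 2 and 3. SSA1, a copy expressed in growth and raised by heat, lies at chrI:139503-141431 on the minus strand. Its level was 342, 138 and 1654 in wildtype total mRNA and 397, 154 and 2066 in wildtype polysomal mRNA. In ΔES27Lb it was 513, 204 and 635 in total and 702, 236 and 726 in polysomal mRNA. The ΔES27Lb values fell inside the wildtype range in both pools, so the strains overlapped.

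SSA2, the constitutive copy, lies at chrXII:95566-97485 on the minus strand. Its level was 979.8, 517 and 1228 in wildtype total mRNA and 595, 630.2 and 1512 in wildtype polysomal mRNA. In ΔES27Lb it was 538, 606 and 1159 in total and 900.2, 762 and 1333 in polysomal mRNA. Wildtype replicate 3 exceeded the mean of the other replicates 1.64-fold in total and 2.47-fold in polysomal mRNA, whereas for SSA1 these ratios were 6.89 and 7.49.

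The coding sequences of SSA1 and SSA2 are 96.4% identical, with a longest identical run of 383 bases, so reads within such runs cannot be placed and the counts of the pair are uncertain. How reads with more than 1 match were counted is not given in the sources used here. The first 60 bases of both are shown with the 6 differing bases in capitals (SSA1 chrI:141372-141431 and SSA2 chrXII:97426-97485, both minus strand, RefSeq R64).
SSA1: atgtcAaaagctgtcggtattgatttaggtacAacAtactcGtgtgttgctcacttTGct
SSA2: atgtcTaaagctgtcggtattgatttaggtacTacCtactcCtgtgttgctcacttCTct
SSA1 took 19.7% to 57.9% of the counts of the pair over the 12 libraries. Its share was 57.5% and 57.9% in wildtype replicate 3 and 48.9% in ΔES27Lb total replicate 1, and at most 43.9% elsewhere.

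SSA3 and SSA4 encode the Hsp70s induced by stress. SSA3 (chrII:84499-86448, minus strand) stood at 32.5, 22.9 and 48.6 in wildtype total mRNA and at 20.6, 19.8 and 43.7 in wildtype polysomal mRNA. In ΔES27Lb it stood at 136, 23.2 and 23.3 in total mRNA and at 36.2, 21.8 and 18.6 in polysomal mRNA. SSA4 (chrV:364589-366517, plus strand) had a like pattern, with 39.9, 19.8 and 75.8 in wildtype total and 22.2, 18.0 and 81.0 in wildtype polysomal mRNA. Its ΔES27Lb levels were 121, 20.4 and 24.5 in total and 35.3, 19.8 and 20.8 in polysomal mRNA. In ΔES27Lb total replicate 1, SSA3 was 5.85-fold and SSA4 5.38-fold the mean of replicates 2 and 3, and in the polysomal library of that culture the ratios were 1.79 and 1.74. SSA3 and SSA4 share 76.6% of their coding sequence, with no identical run above 17 bases, so the reads of these genes are easier to place.

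Hsp90 is encoded by HSP82, the heat-inducible copy (chrXVI:96496-98625, minus strand), and HSC82, the constitutive copy (chrXIII:632355-634472, plus strand), which mature signalling proteins and other clients. HSP82 had levels of 126, 66.1 and 608 in wildtype total mRNA and 123, 63.0 and 635 in wildtype polysomal mRNA. In ΔES27Lb the levels were 344, 80.4 and 181 in total and 304, 77.2 and 207 in polysomal mRNA. The total and the polysomal value of a culture lay close together for HSP82 in all 6 cultures, and the strains overlapped.

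HSC82 had levels of 839, 492 and 1119 in wildtype total mRNA and 538, 539.6 and 1311 in wildtype polysomal mRNA. In ΔES27Lb the levels were 434, 579 and 728 in total and 806, 542 and 834 in polysomal mRNA. Here replicate 1 of both strains was the culture in which the pools differed most, in opposite directions: polysomal below total in wildtype and above total in ΔES27Lb. HSP82 and HSC82 are 91.7% identical over their coding sequences, with a longest identical run of 113 bases, and the first 60 bases differ at the 2 positions in capitals (HSP82 chrXVI:98566-98625, minus strand, and HSC82 chrXIII:632355-632414, plus strand, RefSeq R64).
HSP82: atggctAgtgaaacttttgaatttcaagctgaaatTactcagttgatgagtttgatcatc
HSC82: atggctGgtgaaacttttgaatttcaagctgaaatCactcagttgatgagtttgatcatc
HSP82 took 10.5% to 44.3% of the counts of the pair, with the highest share in ΔES27Lb total replicate 1.

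HSP104 (chrXII:88623-91349, plus strand) encodes the disaggregase and has the longest coding sequence of the group, 2727 bases. Its level was 128, 42.0 and 405 in wildtype total mRNA and 92.3, 41.0 and 457 in wildtype polysomal mRNA. In ΔES27Lb it was 247, 51.6 and 156 in total and 191, 55.8 and 165 in polysomal mRNA. As for SSA1, SSA2, HSP82 and HSP42, the ΔES27Lb values lay between the lowest and the highest wildtype value in both pools.

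The small heat shock proteins are encoded by HSP26 and HSP42, and BTN2 encodes a sequestrase that gathers misfolded proteins in the cell. HSP26 (chrII:382030-382674, plus strand) is the shortest member, with 645 bases. Its level was 128, 111 and 624 in wildtype total mRNA and 282, 139 and 893 in wildtype polysomal mRNA. In ΔES27Lb it was 856, 49.4 and 58.3 in total and 189, 89.6 and 80.1 in polysomal mRNA. ΔES27Lb total replicate 1 was 15.9-fold the mean of replicates 2 and 3, the largest such ratio among the 10 genes, and in the polysomal library the ratio was 2.22. HSP26 was the member whose profile over the 12 libraries lay farthest from the median profile of the group, with a root mean square distance of 0.91 on the log2 scale, against 0.36 for HSP82 as the nearest.

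HSP42 (chrIV:806621-807748, plus strand), the small heat shock protein that is also present in unstressed cells, had levels of 44.6, 21.2 and 331 in wildtype total mRNA and 42.9, 25.1 and 339 in wildtype polysomal mRNA. In ΔES27Lb the levels were 169, 26.1 and 158 in total and 125, 31.6 and 154 in polysomal mRNA. Wildtype replicate 3 exceeded the mean of wildtype replicates 1 and 2 by 10.1-fold in total and 9.96-fold in polysomal mRNA, the largest such ratios of the group. BTN2 (chrVII:772454-773686, plus strand) had levels of 52.7, 27.003 and 72.1 in wildtype total mRNA and 16.1, 21.5 and 64.4 in wildtype polysomal mRNA. Its ΔES27Lb levels were 206, 24.5 and 38.2 in total and 56.0, 25.3 and 37.5 in polysomal mRNA. For BTN2 replicate 1 of both strains had less in polysomes than in total mRNA, and in the other 4 cultures the ratio of polysomal to total level lay between 0.797 and 1.03.

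**Figure D2:**
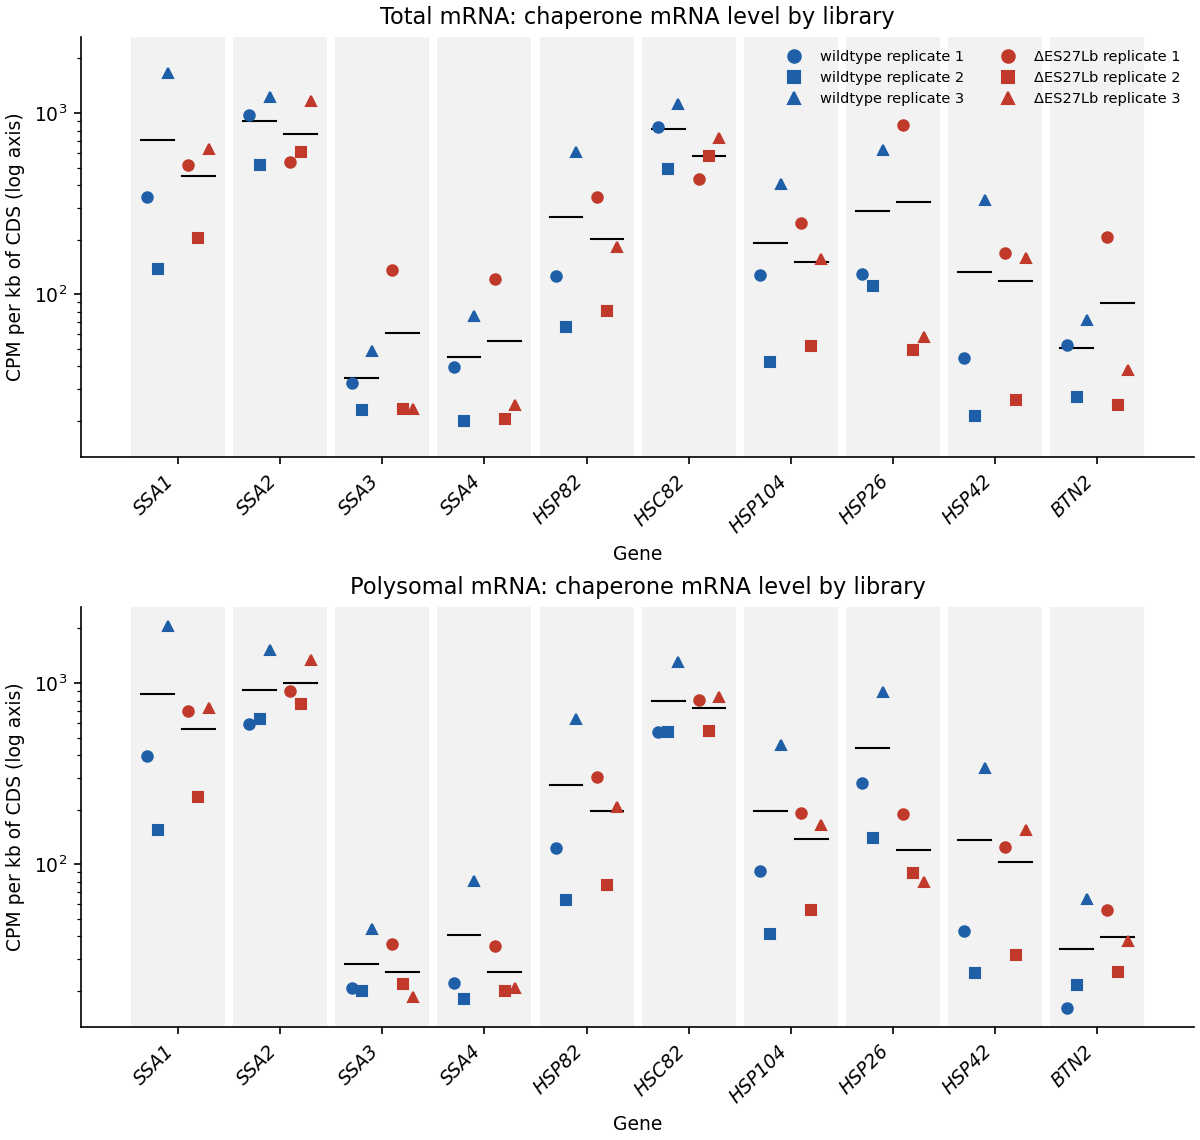
Level of each chaperone mRNA in CPM per kb of CDS (log axis) in total mRNA (top) and polysomal mRNA (bottom), with a symbol per library (blue for wildtype, red for ΔES27Lb) and a black line at the mean of the 3 replicates. SSA2, HSC82 and SSA1 are the highest, SSA3, SSA4 and BTN2 are near the bottom, and the strains overlap for all 10 genes.

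Ordered by median level per length, SSA2 came first in each of the 4 conditions, followed by HSC82 and then SSA1. The places of SSA1, SSA2, HSP82 and HSC82 are uncertain, since how reads in their identical runs were counted is not given. In wildtype total mRNA HSP26, HSP104, HSP82, BTN2, HSP42, SSA4 and SSA3 followed, with medians from 128 down to 32.5 CPM per kb. In ΔES27Lb total mRNA the order after SSA1 was HSP82, HSP42, HSP104, HSP26, BTN2, SSA4 and SSA3, with medians from 181 down to 23.3 CPM per kb. Neighbours in these orders overlapped over the replicates in all 4 conditions, except that all HSP26 values lay above all BTN2 values in ΔES27Lb polysomal mRNA. HSC82 was above SSA1 in 2 of 3 libraries of each condition but ΔES27Lb polysomal mRNA, where it was above it in all 3.

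Polysome association was compared as log2 P/T, the log2 ratio of polysomal to total mRNA, first in single cultures as a description. Of the Hsp70 genes, SSA1 had a log2 P/T of 0.22, 0.16 and 0.32 in wildtype cultures 1, 2 and 3 and of 0.45, 0.21 and 0.19 in ΔES27Lb. SSA2 had −0.72, 0.29 and 0.30 in wildtype and 0.74, 0.33 and 0.20 in ΔES27Lb. SSA1 was above 0 in all 6 cultures, and SSA2 in all but wildtype culture 1, but relative to ACT1, GCN4 and TAF10 they were above 0 in only 3 and 4 of 6 cultures.

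The stress-induced Hsp70 mRNAs lay mostly below 0. SSA3 had a log2 P/T of −0.66, −0.21 and −0.15 in wildtype and −1.91, −0.09 and −0.33 in ΔES27Lb. SSA4 had −0.84, −0.14 and 0.10 in wildtype and −1.77, −0.04 and −0.23 in ΔES27Lb. In both genes culture 1 was the lowest of each strain, and the other 4 cultures stayed within 0.33 of 0.

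HSP82 stayed near 0 in all cultures, with −0.03, −0.07 and 0.06 in wildtype and −0.18, −0.06 and 0.20 in ΔES27Lb. HSC82 had −0.64, 0.13 and 0.23 in wildtype and 0.89, −0.10 and 0.20 in ΔES27Lb. HSP104 had −0.47, −0.04 and 0.18 in wildtype and −0.37, 0.11 and 0.08 in ΔES27Lb. HSC82 thus had the widest gap between culture 1 of the strains after HSP26, and for HSP104 culture 1 was the lowest in both.

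HSP26 was above 0 in 5 of 6 cultures, with 1.13, 0.33 and 0.52 in wildtype and −2.18, 0.86 and 0.46 in ΔES27Lb. HSP42 had −0.06, 0.24 and 0.03 in wildtype and −0.44, 0.28 and −0.04 in ΔES27Lb. BTN2 had −1.71, −0.33 and −0.16 in wildtype and −1.88, 0.05 and −0.03 in ΔES27Lb. The lowest value of the whole group was that of HSP26 in ΔES27Lb culture 1, and ΔES27Lb cultures 2 and 3 had HSP26 values inside the wildtype range.

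**Figure D3:**
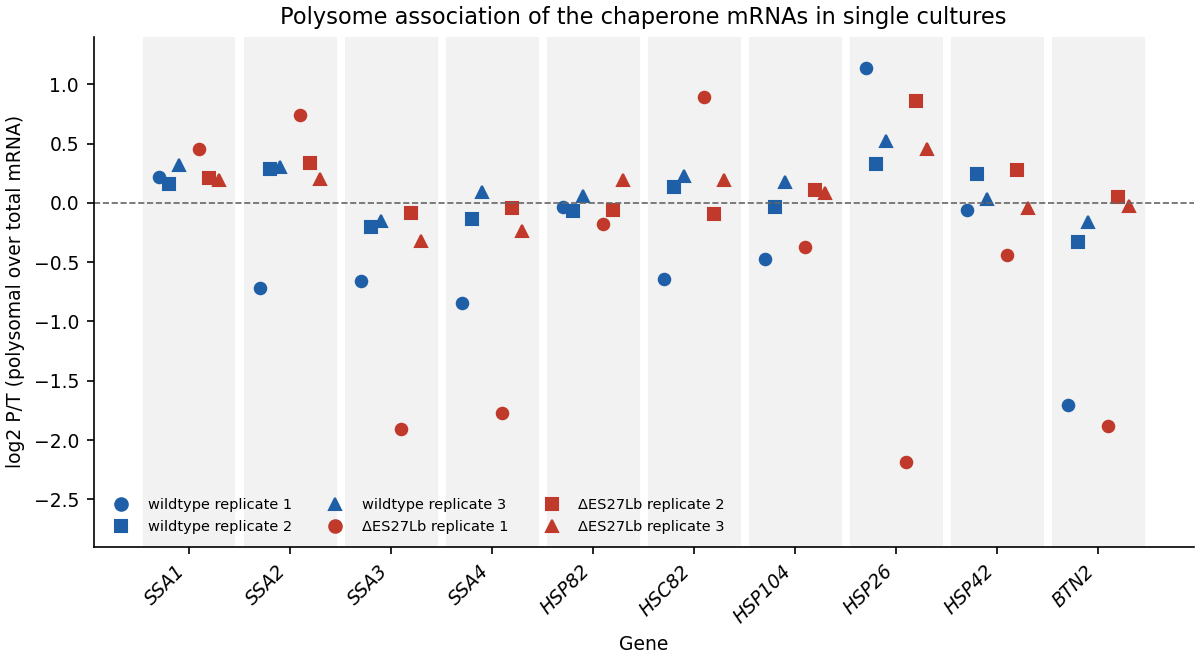
log2 P/T of each chaperone mRNA in the 3 wildtype (blue) and the 3 ΔES27Lb (red) cultures, with a symbol per replicate number and a dashed line at 0, where polysomal and total levels are equal. ΔES27Lb replicate 1 lies between −1.77 and −2.18 for SSA3, SSA4, HSP26 and BTN2 and at 0.74 and 0.89 for SSA2 and HSC82, whereas replicates 2 and 3 of both strains lie between −0.33 and 0.33 except for HSP26.

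Set against all genes of the same culture, ΔES27Lb culture 1 had HSP26, SSA3, BTN2 and SSA4 at percentiles 1.47, 2.27, 2.42 and 2.72 of log2 P/T and SSA2 and HSC82 at percentiles 95.3 and 97.7. The median over the members was −0.40 in that culture, and 0.75 over the general stress genes, of which 2 of 19 were below 0. Over the other Hsf1 targets examined it was 0.42. The low values were thus not shared by the general stress genes of the same libraries. In wildtype culture 1 BTN2 was at percentile 3.83 and HSP26 at percentile 85.9, and log2 P/T of all genes was spread most widely there, with an SD of 1.05 against 0.60 to 0.78 in the other 5 cultures.

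Polysomal and total mRNA of wildtype were then compared in 1 fit over all genes with edgeR's quasi-likelihood test and Benjamini-Hochberg adjustment. None of the 10 chaperone genes was called at an adjusted p of 0.05, where the edgeR test called 0.117% of all genes, or 7 genes. None reached an unadjusted p of 0.05, as 1709 of 6003 genes did, and DESeq2 called 0 members and 769 genes. With the culture as a replicate block the test called 32.5% of all genes, 16.9% higher and 15.6% lower, 1950 genes together, and again 0 of 10 members. At an unadjusted p of 0.05 this fit held 0 members and 2717 genes. The largest fitted values without the block were 0.61 for HSP26 (SE 1.04, 95% interval −1.64 to 2.86, adjusted p = 0.73, edgeR) and −0.57 for BTN2 (SE 0.73, interval −2.15 to 1.01, adjusted p = 0.63, edgeR). With the block BTN2 had −0.72 (SE 0.39) and HSP26 0.66 (SE 0.45). With an offset for CDS length HSP26, the shortest member, had 0.10, and 0.13 with the offset and the block together. When ΔES27Lb culture 1 was left out of the blocked fit, HSP26 was called with 0.66 (adjusted p = 0.039, edgeR, 0.039 to 0.98 over 19 settings), as 1 of 10 members where 14.1% of all genes were called higher. With the block and an offset for CDS length together, SSA1 was called with 0.52 (adjusted p = 0.046, edgeR, 0.046 to 0.93 over 19 settings), as 1 of 10 members where 0.983% of all genes were called higher. The median over the members was 0.02, beside −0.06 over all genes tested, −0.066 with the block and −0.29 without wildtype replicate 3. Scaling to ACT1, GCN4 and TAF10, the reference genes of the study's quantitative PCR, lowered every log2 P/T of wildtype by 0.26, which brought SSA2, HSP82, HSP104 and HSP42 below 0, to between −0.26 and −0.23.

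In ΔES27Lb the same test of P/T called 0% of all genes and 0 of 10 members, while 898 of 6003 genes and 0 members passed 0.05 before adjustment and DESeq2 called 94 genes and 0 members. With the replicate block it called 6.96% of all genes (2.88% higher, 4.08% lower) and 0 of 10 members, of which SSA3 had an unadjusted p of 0.030 and an adjusted p of 0.11 in edgeR (0.11 to 0.88 over 19 settings). The fitted values of HSP26, SSA3, BTN2 and SSA4 without the block were −1.43 (SE 1.06), −1.25 (SE 0.62), −1.18 (SE 0.74) and −1.13 (SE 0.74). With the block they were −0.25 (SE 0.49), −0.77 (SE 0.31), −0.62 (SE 0.39) and −0.68 (SE 0.32), and without ΔES27Lb replicate 1 and without the block 0.66, −0.20, 0.00 and −0.14. The median over the members was −0.16, beside −0.06 over all genes, and 0.08 without that replicate.

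By direction, SSA3 and BTN2 were below 0 in all 3 wildtype cultures, as were 34.5% of all genes, and SSA1 and HSP26 above 0, as were 32.4%. In ΔES27Lb SSA3 and SSA4 were below 0 in all 3 cultures, as were 30.8% of all genes, and SSA1 and SSA2 above 0, as were 25.7%. With 2 of 10 members in each class, these counts lie near the shares of all genes and show nothing particular to the chaperone genes.

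Whether log2 P/T differed between the strains, the question of the polysome experiment, was tested as an interaction. The edgeR test called 0% of all genes and 0 of 10 members, with 46 genes and 0 members at an unadjusted p of 0.05 or less, and DESeq2 called 1 gene and 0 members. HSP26 had the largest fitted difference, −2.03 (ΔES27Lb minus wildtype, SE 1.48, 95% interval −5.24 to 1.17, adjusted p = 0.9997, edgeR). SSA4 had −0.96 (SE 1.03), SSA3 −0.95 (SE 0.87) and BTN2 −0.60 (SE 1.03). The constitutive copies lay on the other side of 0, with 0.37 for SSA2 (SE 0.64, interval −1.02 to 1.76) and 0.36 for HSC82 (SE 0.58, interval −0.89 to 1.61). SSA1 had 0.00 (SE 1.34), HSP82 −0.08 (SE 1.30), HSP104 −0.18 (SE 1.29) and HSP42 −0.22 (SE 1.56). In the blocked fit the difference was −0.91 for HSP26 (SE 0.66), −0.44 for SSA3 (SE 0.43), −0.39 for SSA4 (SE 0.44) and 0.10 for BTN2 (SE 0.55). SSA2 had 0.47 (SE 0.33) and HSC82 0.42 (SE 0.34) in that fit. The median over the members was −0.20 without and 0.025 with the block. Relative to ACT1, GCN4 and TAF10 all values rose by 0.22, and HSP82 and HSP104 came to lie above 0. Of these references GCN4 had a log2 P/T of −1.49 in ΔES27Lb culture 1 and of −0.17 to −0.50 in the other cultures. Every interval without the block held 0, and changes of several-fold in either direction lay within those intervals for most members. With the block, which rests on the pairing by replicate number, the intervals were narrower and all held 0. They ran from −0.47 to 0.57 for SSA1, −0.49 to 0.49 for HSP82, −0.52 to 0.62 for HSP104 and −0.68 to 0.39 for HSP42.

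Without ΔES27Lb culture 1 the fitted differences of 7 of 10 members changed sign. Among them HSP26, SSA3, SSA4 and BTN2 came to 0.05, 0.10, 0.01 and 0.57. The differences of SSA2 and HSC82 kept their sign and fell to 0.24 and 0.11. Over all fits with cultures left out, SSA2 ranged from 0.12 to 0.66 and HSC82 from 0.11 to 0.62. The value of SSA2 thus depended on other cultures too. Without any other single culture HSP26 stayed between −2.37 and −1.85. The P/T values of the 3 cultures overlapped between the strains for all 10 members, whereas 7.5% of all genes had values that did not overlap.

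Total mRNA was compared between the strains to see the level of the chaperone mRNAs before polysome selection. The edgeR test called 0% of all genes and 0 of 10 members, with 351 genes and 0 members at an unadjusted p of 0.05 or less, and DESeq2 called 4 genes and 0 members. BTN2 had a log2 difference of 0.82 (SE 0.73, interval −0.76 to 2.41) and SSA3 of 0.81 (SE 0.62, interval −0.53 to 2.15), with adjusted p of 0.79 and 0.77 in edgeR. SSA1 had −0.66 (SE 0.95), HSC82 −0.49 (SE 0.41), HSP82 −0.40 (SE 0.92) and HSP104 −0.34 (SE 0.91). The remaining values were −0.24 for SSA2, 0.29 for SSA4, 0.16 for HSP26 and −0.17 for HSP42. No member had 3 ΔES27Lb libraries apart from the 3 wildtype libraries, which held for 8.06% of all genes.

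The direction in total mRNA changed for 5 members without wildtype culture 3 and for 4 members without ΔES27Lb culture 1. Without wildtype replicate 3 the median over the members moved from −0.21 to 0.99, and 9 of 10 members were above 0, with HSP42 at 1.84 and HSP26 at 1.43 and HSC82 at −0.19. Without ΔES27Lb replicate 1 the median was −0.72, and SSA3, BTN2 and HSP26 had −0.57, −0.69 and −2.41. Without both the median was 0.11. With all libraries the median was −0.00 over all genes and −0.64 over the general stress genes, with 18 of 19 below 0. Between the strains the replicate block joined wildtype and ΔES27Lb libraries of a pool with the same replicate number, not libraries of a culture. With this block the median was −0.0072 over the members, 5 of which were above 0. Over the general stress genes it was −0.10, with 11 of 19 below 0. HSP26 was at −0.80 with the block, and at −0.055 relative to ACT1, GCN4 and TAF10.

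In polysomal mRNA the edgeR test called 0% of all genes and 0 of 10 members, with 73 genes and 0 members at an unadjusted p of 0.05 or less, and DESeq2 called 4 genes and 0 members. HSP26 had the largest difference of any member, −1.87 (SE 1.07, interval −4.19 to 0.45, adjusted p = 0.9999, edgeR). The other members lay between −0.67 (SSA4) and 0.22 (BTN2), and the median was −0.44, beside −0.01 over all genes. The median was 0.012 with the replicate block, with 6 of 10 members above 0, and HSP26 had −1.50 (SE 1.02). This block too joined the strains by replicate number, which had no clear ground for polysomal mRNA (r = −0.11 to 0.55). Without wildtype replicate 3 the median was 0.86, and HSP26, at −0.82, was the only member below 0. The libraries of the strains overlapped for all 10 members, and 5.61% of all genes did not overlap.

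**Figure D4:**
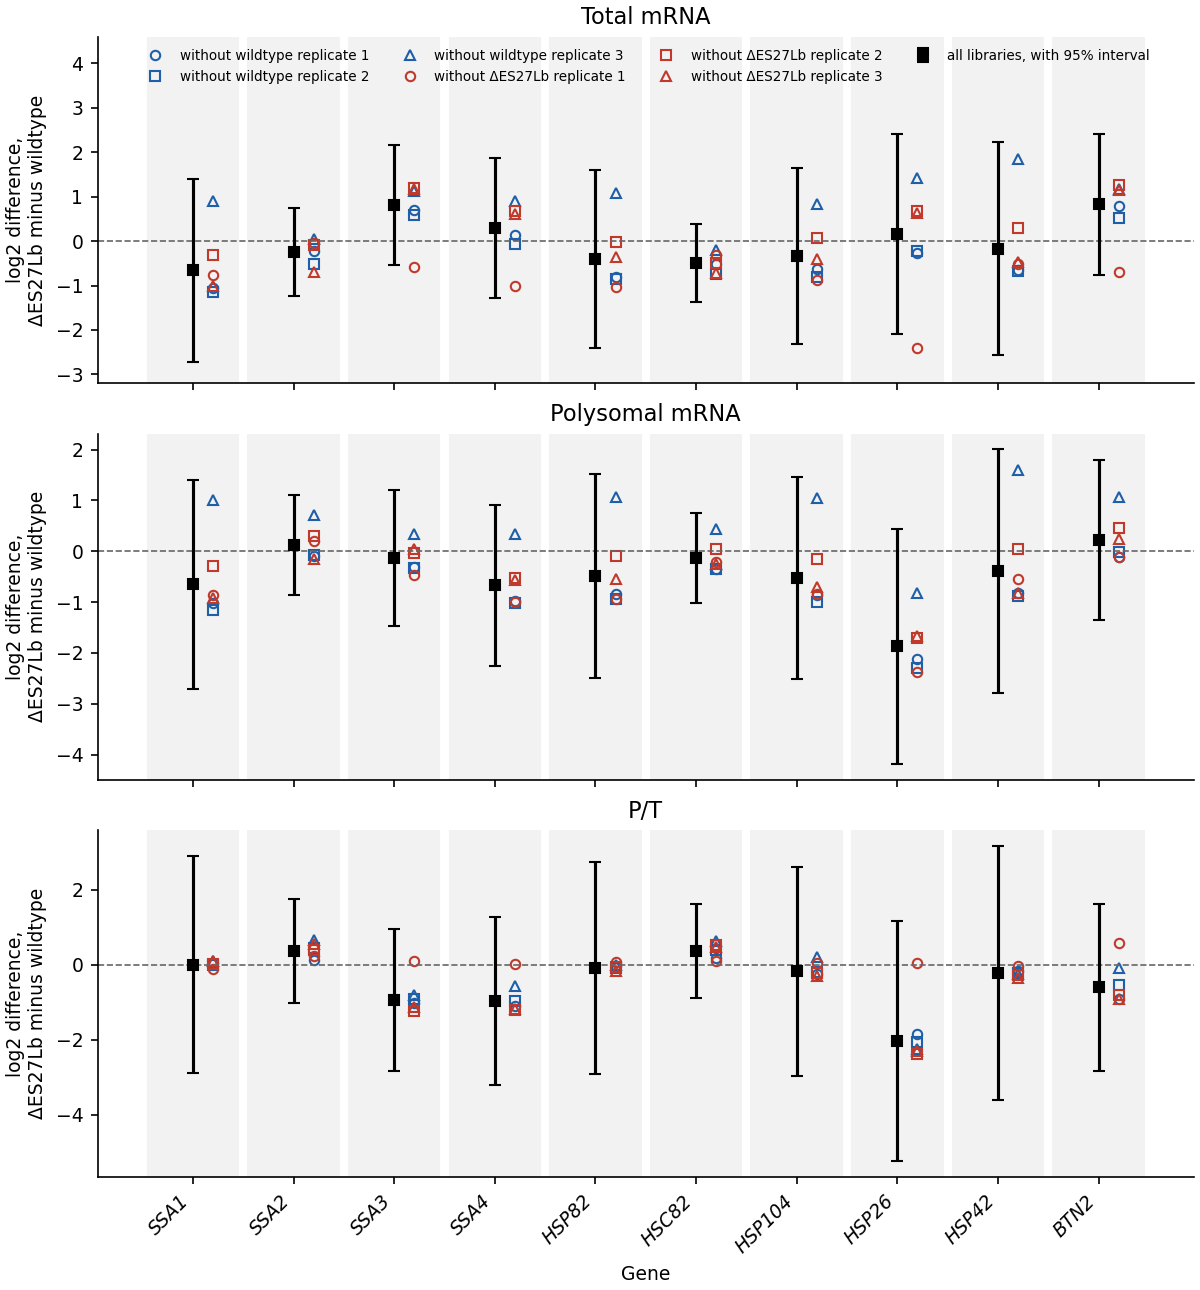
Fitted log2 difference of ΔES27Lb minus wildtype for each chaperone gene in total mRNA (top), polysomal mRNA (middle) and log2 P/T (bottom), as black squares with 95% intervals from edgeR over all 12 libraries, and as open symbols with 1 culture left out (blue for wildtype, red for ΔES27Lb). Leaving out wildtype replicate 3 moves most open triangles above 0 in total and polysomal mRNA, and leaving out ΔES27Lb replicate 1 brings HSP26 from −2.03 to 0.05 in P/T.

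Partners of these chaperones were examined with lists of 14 Hsp70 co-chaperones, 12 Hsp90 co-chaperones, 12 other Hsf1 targets (8 of which also stand in those lists), the 3 regulators HSF1, MSN2 and MSN4, and 19 general stress genes, all of them tested. Without the block no gene of these lists was called in any of the 5 comparisons. With the block, P/T in wildtype was higher for 5 of 12 Hsp90 co-chaperones, 4 of 12 other Hsf1 targets and 5 of 19 general stress genes, where 16.9% of all genes were called higher, and for 0 of 14 Hsp70 co-chaperones and 0 of 3 regulators. This fit held no offset for CDS length, and with the offset added 0.983% of all genes were called higher. The lists were not examined with the offset, so the part of CDS length in these calls was not tested. HCH1, an activator of the Hsp90 ATPase, had 1.08 (SE 0.26, adjusted p = 0.016, edgeR) and SBA1, the yeast p23, 0.71 (SE 0.17, adjusted p = 0.016, edgeR). PIH1, a subunit of the R2TP complex, had 0.68, CPR6, a peptidyl-prolyl isomerase that binds Hsp90, 0.65 and AHA1, an Hsp90 ATPase activator, 0.63. Among general stress genes SOL4 had 1.37, TFS1 1.09 and HSP12, a small membrane-associated stress protein, 0.93. In wildtype culture 1, where log2 P/T was spread most widely, SOL4 had 3.04, HCH1 2.03 and TFS1 1.96. In cultures 2 and 3 SOL4 had 0.41 and 0.84, HCH1 0.52 and 0.71, and TFS1 0.49 and 0.84. Of the genes named here only CPR6 was highest in another culture, with 0.78 in culture 3. The Hsp90 genes themselves had −0.01 (HSP82, SE 0.16) and −0.09 (HSC82, SE 0.24) in the blocked fit. With the CDS length offset added to the block they had 0.34 and 0.25.

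In ΔES27Lb the blocked test called SBA1 (0.83, adjusted p = 0.045, edgeR) and MBF1, a transcriptional coactivator (0.93, adjusted p = 0.045, edgeR), which is 1 of 12 genes in each of their lists, where 2.88% of all genes were called higher. These calls too were made without an offset for CDS length. No listed gene was called in the interaction or between the strains in total or polysomal mRNA, with or without the block. In the interaction without the block the medians were 0.16 for the Hsp70 co-chaperones, −0.06 for the Hsp90 co-chaperones, 0.15 for the other Hsf1 targets and 0.21 for the general stress genes, beside −0.20 for the 10 chaperone genes. With the block the medians of these lists were 0.15, −0.10, 0.23 and 0.10, beside 0.025 for the 10 chaperone genes.

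The non-members whose profile over the 12 libraries lay nearest to the median profile of the chaperone genes were SSE2, MSC1, YGP1, RNY1 and YMR196W. Their root mean square distances on the log2 scale were 0.32, 0.34, 0.38, 0.38 and 0.39, beside a median of 0.96 over the 5142 genes ranked. SSE2, a nucleotide exchange factor of Hsp70, was 1.66 and 1.70 above its mean in wildtype replicate 3, total and polysomal, and 0.92 above it in ΔES27Lb total replicate 1. The libraries share depth and culture between them, and 5 of the 10 members lay farther from the median profile than 0.60.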

How the data were processed

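The authors enriched poly(A)-containing RNA, prepared libraries with a stranded Illumina kit, sequenced them on a HiSeq3000, aligned reads with HISAT2 to the BY4742 genome and obtained counts with featureCounts (FastQC is also named in the submitters' processing notes). The deposited files hold unnormalized counts, 1 value per gene in each of 12 libraries that were not pooled. Versions, annotation, the use of strand and the treatment of reads with more than 1 match are not given in the sources used here. Strain, pool and replicate number were taken from the sample titles. The strain tag names yJD1045 for all libraries, whereas the source names number each library from yJD1045 to yJD1056, and this difference could not be settled.

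Counts were tested in R 4.3.3 with the quasi-likelihood test of edgeR 4.0.16 (TMM normalization, default low-count filter, 6003 genes, 1 mean per condition over all 12 libraries, no replicate block), and p-values were adjusted over all genes tested by the Benjamini-Hochberg method at 0.05. SE was the size of the log2 value divided by the square root of F. For the P/T of each culture a prior count of 0.5 was added. The replicate numbers were taken to pair total and polysomal libraries of a strain because the deviations from the condition means correlated in all 6 cultures (r = 0.20 to 0.90, 5152 genes whose mean log2 CPM was 3 or more), and for total mRNA between strains (r = 0.19 to 0.43), but not for polysomal mRNA (r = −0.11 to 0.55). Neither the labels nor the methods state this pairing. The replicate block was the culture for P/T. For comparisons between the strains it was the replicate number within a pool, polysomal mRNA included. CDS lengths, coordinates and sequences came from RefSeq R64 of S288C, matched by systematic name for 6048 of 7126 IDs, with alignments in Biopython 1.88 and plots in matplotlib 3.10.9. The scripts were tested on simulated data.

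The alternatives were the Wald test of DESeq2 1.42.0, its size factors within edgeR, no filter, at least 10 counts in every library, only the libraries compared, a replicate block, an offset for CDS length (loess, span 0.5) with and without the block, summed counts of similar pairs, scaling to ACT1, GCN4 and TAF10, a prior count of 2 and leaving out each culture. The pairs summed were SSA1 with SSA2, SSA3 with SSA4 and HSP82 with HSC82. Genes named were the 10 members, up to 3 called genes per direction and comparison from each list (from the blocked fit where the main test called none), and the 5 non-members nearest in profile. The members and lists were chosen with earlier results of these data known. No protein sequences were printed.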

Additional observations from a re-analysis of the deposited data

How the results depend on the processing

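None of the 10 chaperone genes was called without the replicate block in any of the 5 comparisons, under any alternative run. For the alternatives with a test, the values below are those of members, none of them called, that changed sign, and a selection of counts and medians that moved. Some of these lay inside their range over left-out cultures. Examples are the medians of 0.025 in the strain difference in P/T (range −0.32 to 0.31) and −0.0060 in P/T in ΔES27Lb (range −0.27 to 0.083). The cause of these changes was not tested. The replicate block changed no call of a member. With the block and the CDS length offset SSA1 was called in P/T in wildtype, and HSP26 there when ΔES27Lb culture 1 was left out of the blocked fit, with their values and adjusted p given beside that comparison. With the Wald test of DESeq2, P/T in wildtype had 769 genes called. P/T in ΔES27Lb then had 94 genes called and 0.0040 for HSP82. The strain difference in P/T then had 1 gene called and −0.00059 for SSA1. Total mRNA then had 4 genes called. Polysomal mRNA then had 4 genes called. With at least 10 counts in every library, P/T in wildtype had −0.017 for SSA2. With only the libraries compared in the fit, P/T in wildtype had 3 genes called. With the replicate block, P/T in wildtype had 1950 genes called, −0.041 for SSA2, −0.013 for HSP82 and −0.11 for HSP104. P/T in ΔES27Lb then had 418 genes called. The strain difference in P/T then had a median of 0.025, 0.051 for HSP104 and 0.10 for BTN2. Total mRNA then had 0.023 for HSP82, −0.80 for HSP26 and 0.37 for HSP42. Polysomal mRNA then had 0.0060 for SSA1, 0.018 for HSP82, 0.034 for HSP104 and 0.25 for HSP42. With an offset for CDS length, P/T in wildtype had a median of 0.22, 0.13 for SSA4, 0.32 for HSC82 and −0.10 for HSP42. P/T in ΔES27Lb then had 0.12 for HSP82 and 0.14 for HSP104. The strain difference in P/T then had −0.15 for SSA1. Total mRNA then had −0.00078 for HSP26. With the replicate block and the CDS length offset together, P/T in wildtype had 253 genes called, 1 member called, a median of 0.19, 0.25 for HSC82 and −0.045 for HSP42. P/T in ΔES27Lb then had 60 genes called, a median of −0.0060, 0.19 for HSP82 and 0.26 for HSP104. The strain difference in P/T then had −0.086 for SSA1 and 0.055 for BTN2. Total mRNA then had 0.075 for SSA1, 0.16 for HSP82, 0.15 for HSP104, −0.98 for HSP26 and 0.33 for HSP42. Polysomal mRNA then had 0.00042 for SSA1, 0.029 for HSP82, 0.062 for HSP104 and 0.19 for HSP42. The alternative of summed pairs also summed SSA3 and SSA4, which share 76.6% of their coding sequence. With the pairs summed, where HSP82 stands for HSP82 and HSC82 and SSA2 for SSA1 and SSA2, P/T in wildtype had −0.018 for HSP82. P/T in ΔES27Lb then had 0.24 for HSP82. The strain difference in P/T then had 0.26 for HSP82. Polysomal mRNA then had −0.20 for SSA2. With DESeq2's size factors in edgeR, P/T in ΔES27Lb had 0.0041 for HSP82. The strain difference in P/T then had −0.00048 for SSA1.

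For P/T in wildtype leaving out cultures gave the genes called from 0 to 1631, SSA4 from −0.57 to 0.059, HSC82 from −0.30 to 0.22, SSA2 from −0.28 to 0.31, the median of the members from −0.29 to 0.11, HSP82 from −0.044 to 0.055, HSP104 from −0.35 to 0.16 and the members called from 0 to 1. For P/T in ΔES27Lb leaving out cultures gave HSP82 from −0.12 to 0.12, the genes called from 0 to 15, the median of the members from −0.27 to 0.083, HSP104 from −0.24 to 0.097, HSP26 from −1.76 to 0.66, HSP42 from −0.29 to 0.12 and BTN2 from −1.47 to 0.011. For the strain difference in P/T leaving out cultures gave SSA1 from −0.10 to 0.10, the median of the members from −0.32 to 0.31, HSP82 from −0.18 to 0.16, HSP104 from −0.30 to 0.44, SSA3 from −1.23 to 0.25, SSA4 from −1.21 to 0.42, HSP26 from −2.37 to 0.046, BTN2 from −0.92 to 1.08 and HSP42 from −0.34 to 0.040. For total mRNA leaving out cultures gave HSP26 from −2.41 to 1.43, SSA4 from −1.01 to 0.89, the median of the members from −0.72 to 0.99, SSA1 from −1.15 to 0.91, SSA2 from −0.69 to 0.24, HSP82 from −1.03 to 1.07, HSP104 from −0.88 to 0.84, HSP42 from −0.67 to 1.84, SSA3 from −0.57 to 1.20, BTN2 from −0.69 to 1.27 and the genes called from 0 to 5. For polysomal mRNA leaving out cultures gave SSA2 from −0.15 to 0.77, BTN2 from −0.28 to 1.08, the median of the members from −0.92 to 0.86, SSA1 from −1.15 to 1.01, SSA3 from −0.55 to 0.48, SSA4 from −1.03 to 0.41, HSP82 from −0.95 to 1.08, HSC82 from −0.35 to 0.43, HSP104 from −0.9998 to 1.04, HSP42 from −0.88 to 1.60 and the genes called from 0 to 1. Scaling to ACT1, GCN4 and TAF10, which carries no test, moved all members by −0.26 in wildtype P/T, −0.043 in ΔES27Lb P/T, 0.22 in the strain difference in P/T, −0.21 in total mRNA and 0.0066 in polysomal mRNA. It changed the sign of 4, 0, 2, 1 and 0 members in these comparisons. The median of the members also changed sign inside its range over left-out cultures. In wildtype P/T it came to −0.0045 with at least 10 counts and −0.066 with the replicate block. In polysomal mRNA it came to 0.012 with the block and 0.015 with block and length offset. In total mRNA it came to 0.14 with block and length offset. The prior count of 2 moved no P/T value of a culture by more than 0.0042. The P/T difference uses all 12 libraries, so a fit of only the libraries compared was not run for it. Each member held at least 304 counts in every library, so counting error is small beside the spread between replicates. Leaving out a culture leaves 2 replicates in that strain, and leaving out wildtype culture 3 and ΔES27Lb culture 1 together, or either in the blocked fit, was chosen after seeing the data.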
